A study of Mus musculus with 6 samples.

Results

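The 10 leukocyte adhesion molecules Icam1, Vcam1, Icam2, Alcam, Ceacam1, Jam2, Cd47, Cd44, Itgav and Itgb1 were followed in cultured mouse hepatocytes exposed to tumour necrosis factor alpha (TNFα), an inflammatory cytokine. They were chosen by name, with earlier results of these data known. Every probe that the array's annotation pairs with one of these symbols was taken. This gave 35 probes of the 45281 on the array and 10 of its 19057 named genes. A probe entered the tests when it exceeded the median of its array on at least 2 arrays, which 23 probes of 9 of the genes did. The 12 other probes, 6 of Jam2, 3 of Cd44, 2 of Itgav and 1 of Vcam1, had intensities between 108 and 154 and were not tested.

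Primary hepatocytes, parenchymal cells taken from the liver, came from male C57Bl/6J mice, and their RNA was hybridised to single-colour Illumina bead arrays. The 2 arrays of the first group held RNA of cells kept for 2 days with 2 ng/mL recombinant murine TNFα, the 2 of the second that of cells given the same dose for 2 hours, and the 2 of the third that of untreated cells. All cells were cultured on collagen with 5% fetal calf serum, 50 nM dexamethasone, a synthetic glucocorticoid, and 1 nM insulin. Separate mice or cultures are not named for the 2 arrays of a group, and the p-values therefore reflect the difference between arrays alone, which may be technical. The culture time of the untreated cells is not labelled, so exposure to TNFα and time in culture cannot be told apart at 2 days.

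Leukocytes leave the blood by holding on to surface proteins of the cells that line or lie beneath the vessel. ICAM-1 and VCAM-1 are the classical inducible ones: their immunoglobulin domains bind the leukocyte integrins LFA-1, Mac-1 and VLA-4, and TNFα raises their transcription through the factor NF-κB in endothelium and in many other cells. In the liver, both proteins are known on sinusoidal endothelium and appear on hepatocytes in inflammation. CD44 binds the matrix polysaccharide hyaluronan, and the integrin subunits αv and β1, made from Itgav and Itgb1, bind matrix proteins such as vitronectin and fibronectin.

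Values below are deposited intensities, on a linear scale with a floor, the lowest value being 96.5. Folds of probes near this floor are therefore understated. The median intensity of an array lay between 143.16 and 143.22. Within a group the 2 arrays correlated at 0.995 to 0.996 over the 13438 genes tested, and arrays of different groups at 0.982 to 0.991. A gene stood for its brightest passing probe, changes are log2 differences with the standard error (SE) of a limma fit to all 6 arrays, and calls were made at a p under 0.05 after Benjamini-Hochberg adjustment over all genes. Both comparisons against untreated cells share the 2 untreated arrays.

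Of the 9 tested members, 4 rose (Icam1, Vcam1, Cd44 and Itgav) and 1 fell (Ceacam1) at 2 days against untreated cells, where 12.7% of all genes were called, 6.74% higher and 5.92% lower. At 2 hours 2 members rose (Icam1 and Vcam1) and 0 fell, where 2.82% of all genes were called, 1.76% higher and 1.06% lower. An unadjusted p under 0.05 was reached by 5 members at 2 days, 5 at 2 hours and 5 between the times, where 22.8%, 11.8% and 25.7% of all genes reached it. Between the times, 1 member was higher at 2 days than at 2 hours (Cd44) and 2 were lower (Icam1 and Vcam1), where 15.3% of all genes were called, 8.63% higher and 6.67% lower. The median log2 change of the tested members was 0.232 at 2 days and 0.221 at 2 hours, beside 0.006 and -0.012 over all genes. Because the members were chosen with earlier results of these data known, these shares and medians do not test for an excess among them. No overlap between the arrays compared was seen for 6 members at 2 days and 6 at 2 hours, where this held for 49.6% and 40.4% of all genes, and for 5 members between the times, where it held for 52.8%.

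**Figure D1:**
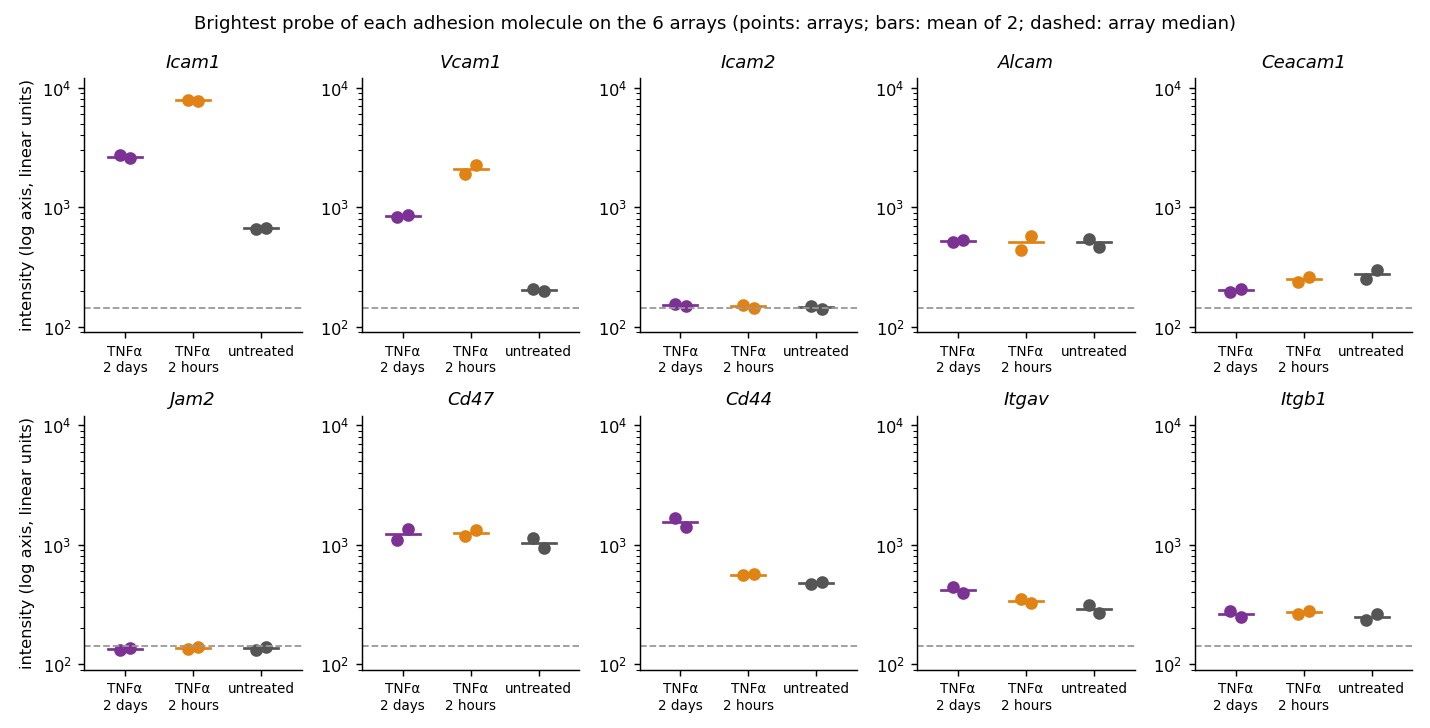
Intensity of the brightest probe of each of the 10 adhesion molecules on a log axis, with a point per array and a bar at the mean of the 2 arrays of cells with TNFα for 2 days, with TNFα for 2 hours and untreated, and a dashed line at the array median. Icam1 and Vcam1 stand highest at 2 hours and remain above untreated cells at 2 days, Cd44 stands highest at 2 days, and Icam2 and Jam2 lie near the array median in all groups.

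Icam1, which encodes the ligand of the β2 integrins LFA-1 and Mac-1, had an intensity of 2723 and 2604 at 2 days, 7992 and 7746 at 2 hours, and 662 and 674 in untreated cells. The 3 groups lay far apart and did not overlap: 2 hours was highest, 2 days intermediate and untreated lowest. The means were 2663 ± 84.2 at 2 days, 7869 ± 173.9 at 2 hours and 668.1 ± 8.35 in untreated cells (SD, n = 2 each). The rise was 11.8-fold at 2 hours (log2 3.56, SE 0.10, adjusted p = 9.7e-19 by limma) and 3.99-fold at 2 days (log2 1.99, SE 0.10, adjusted p = 1.25e-13 by limma). By size, Icam1 ranked 3 among the rises of all genes at 2 hours and 6 among those at 2 days. Against 2 hours, the 2 day level differed by -1.56 on the log2 scale (SE 0.10, adjusted p = 1.27e-11 by limma).

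Promoters of 3 members are printed to set NF-κB motifs beside the measured changes: that of Icam1, the member with the largest change, that of Itgb1, which was not called, and that of Cd44, which rose at 2 days. They run from 250 bases before to 50 after the annotated start, from RefSeq on build GRCm38.p6, each 5′ to 3′ on the gene's strand. Capitals mark matches to the motifs searched on both strands.
Icam1, chr9:21015690-21015989, plus strand: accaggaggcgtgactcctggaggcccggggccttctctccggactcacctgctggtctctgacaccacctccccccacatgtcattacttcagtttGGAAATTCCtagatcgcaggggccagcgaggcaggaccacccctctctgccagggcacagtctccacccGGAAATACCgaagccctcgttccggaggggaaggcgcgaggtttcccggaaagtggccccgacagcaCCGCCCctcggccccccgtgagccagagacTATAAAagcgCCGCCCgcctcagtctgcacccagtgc
Itgb1, chr8:128685404-128685703, plus strand: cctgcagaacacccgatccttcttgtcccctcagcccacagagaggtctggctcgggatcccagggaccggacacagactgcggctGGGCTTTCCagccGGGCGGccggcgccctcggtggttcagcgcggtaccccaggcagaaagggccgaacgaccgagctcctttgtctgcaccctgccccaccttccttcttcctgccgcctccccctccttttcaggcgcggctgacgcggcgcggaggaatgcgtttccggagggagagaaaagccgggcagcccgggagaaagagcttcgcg
Cd44, chr2:102901616-102901915, minus strand: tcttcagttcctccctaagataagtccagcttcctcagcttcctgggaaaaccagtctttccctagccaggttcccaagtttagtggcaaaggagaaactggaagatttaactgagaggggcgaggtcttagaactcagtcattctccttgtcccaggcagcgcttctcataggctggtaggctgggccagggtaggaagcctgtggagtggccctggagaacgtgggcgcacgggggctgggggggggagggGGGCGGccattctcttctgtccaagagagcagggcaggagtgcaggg

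The motifs were the NF-κB forms GGNNTTTCC and GGNNNTTCC, AP-1 TGANTCA, the interferon response motif TTCNNTTTC, Sp1 GGGCGG and the TATA box, TATAAA. A match to the first NF-κB form is always one to the second. The first form occurred in 5.82% and the second in 18.5% of the 32851 promoters of the table, AP-1 in 7.81%, the interferon motif in 8.56%, Sp1 in 35.7% and TATA in 13.6%. Positions are counted from the annotated start, whose first transcribed base is 1.

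The Icam1 window held 2 NF-κB matches. GGAAATTCC at -153 to -145 reads as the second form on both strands and as the first on the minus strand, and GGAAATACC at -84 to -76 reads GGTATTTCC on the minus strand. It also held Sp1 matches at -17 to -12 and 24 to 29 and a TATA match at 14 to 19. The Itgb1 window held 1 NF-κB match, GGGCTTTCC at -164 to -156, and an Sp1 match at -151 to -146. In the Cd44 window the only match was Sp1 at 4 to 9. Of the 7 members with a promoter in the table, Itgav had 1 interferon match (TTCTTTTTC at -190 to -182) and 1 Sp1 match, Alcam and both starts of Cd47 had Sp1 matches only, and Ceacam1 had none. AP-1 matches numbered 0 in these 8 windows. Vcam1, Icam2 and Jam2 had no promoter in the table, so their promoters were not searched. A match describes these letters and does not show binding, and Itgb1 carried an NF-κB match without a called change.

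**Figure D2:**
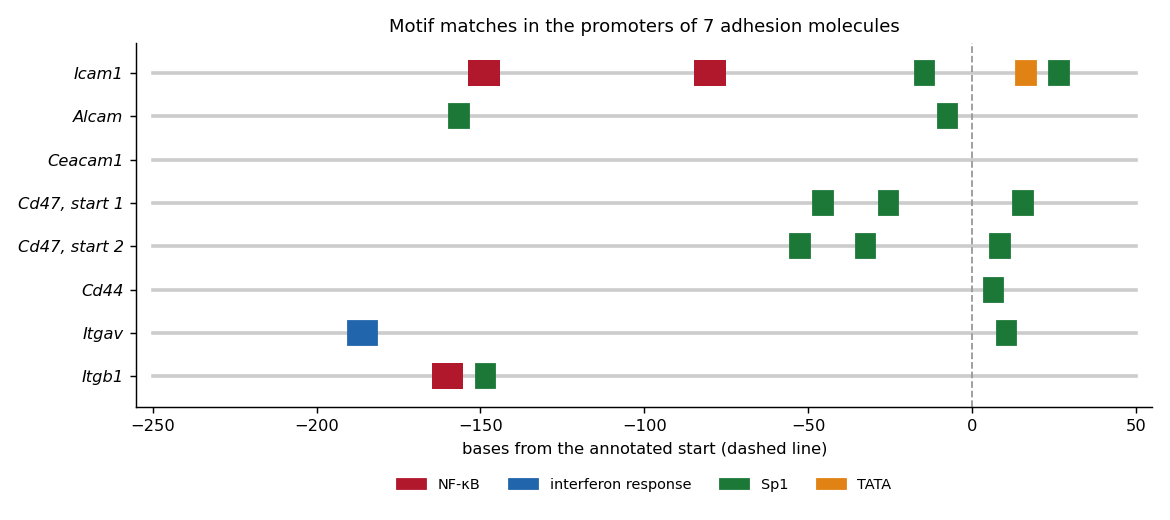
Position of motif matches, in bases from the annotated start, in the promoter windows of 7 adhesion molecules, with one line per start and colours for the NF-κB, interferon response, Sp1 and TATA motifs. NF-κB matches lie in the windows of Icam1, which holds 2, and Itgb1, which holds 1. Vcam1, Icam2 and Jam2 are absent because no promoter sequence was available for them.

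Vcam1, which encodes the ligand of the α4 integrin VLA-4 of monocytes and lymphocytes, had an intensity of 824 and 868 at 2 days, 1914 and 2252 at 2 hours, and 207 and 201 in untreated cells. The order of the groups was that of Icam1, with no overlap between any of them. The rise was 10.2-fold at 2 hours (log2 3.35, SE 0.10, adjusted p = 1.02e-17 by limma), rank 4 among all rises, and 4.15-fold at 2 days (log2 2.05, SE 0.10, adjusted p = 1.97e-13 by limma), rank 5. Between the times the log2 change was -1.30 (SE 0.10, adjusted p = 9.44e-10 by limma). After a normexp background correction the rises were 17.65-fold at 2 hours and 6.71-fold at 2 days for Vcam1, whose untreated intensity was low, and 13.5-fold and 4.46-fold for Icam1.

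The 3 other Vcam1 probes gave smaller values. The annotation pairs the brightest probe with a RefSeq transcript and these 3 with cDNA clone sequences. The second brightest read 176 and 211 at 2 days, 232 and 256 at 2 hours, and 138 and 135 in untreated cells, again in the same order without overlap. Its log2 change was 0.50 at 2 days (adjusted p = 0.00221 over all probes by limma) and 0.84 at 2 hours (adjusted p = 1.44e-05). Its fall between the times, -0.34, was called (adjusted p = 0.0372) but not without replicate 1 of the 2 day group (-0.21), without replicate 1 (-0.41) or 2 (-0.27) of the 2 hour group, or after normexp (adjusted p = 0.155), and its rise at 2 days was not called without replicate 2 of that group (0.37, adjusted p = 0.088). The third passing probe changed by 0.05 at 2 days and 0.08 at 2 hours and was not called, and the fourth was too dim to test. With the mean of its passing probes, Vcam1 rose 1.82-fold at 2 days and 2.68-fold at 2 hours, and both remained called. Icam1 has a single probe.

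Sinusoidal endothelium, the cell type of the liver best known for both ligands, could be present beside hepatocytes. Its 10 marker genes, among them Stab2, Lyve1, Pecam1 and Cdh5, had a summed intensity of 1915 to 1921 at 2 days, 1846 to 1992 at 2 hours and 1841 to 1950 in untreated cells. Of these markers 0 were called at 2 hours. At 2 days 1 was higher (Oit3, 0.43) and 1 lower (Stab2, -0.37) than in untreated cells. Oit3 (0.38) was also higher and Stab2 (-0.56) lower at 2 days than at 2 hours. These sums, like those of the lists below, contained the floor of the scale, which hides part of a change in dim markers. In RNA of whole cultures, a change in the number of cells of a type and a change in RNA per cell cannot be told apart.

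Of the other immunoglobulin superfamily members, 0 were called higher on their brightest probe. Icam2, a ligand of LFA-1 that endothelium and blood cells carry without induction, had an intensity of 155 and 150 at 2 days, 154 and 143 at 2 hours, and 149 and 142 in untreated cells. All 6 values lay near the array median, and the intervals of its log2 change ran from -0.14 to 0.28 at 2 days and from -0.18 to 0.24 at 2 hours.

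Alcam, a receptor for CD6 and for itself, had an intensity of 512 and 534 at 2 days, 442 and 581 at 2 hours, and 549 and 469 in untreated cells. The groups overlapped throughout, and the spread within the 2 hour group was wider than any difference between means. Its log2 change was 0.04 at 2 days (95% interval -0.20 to 0.29) and 0.00 at 2 hours (95% interval -0.24 to 0.24). Small changes of Icam2 and Alcam lie within these intervals, while the intervals of Icam1 and Vcam1 at 2 days began at 1.79 and 1.84.

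Jam2, a junctional protein that binds JAM-C and α4β1, had 6 probes, each with intensities between 110 and 149, and 0 of them passed. In 5 of the 6 probes no array exceeded its median. Whether Jam2 RNA was present or changed was not measurable on these arrays.

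Ceacam1, a homophilic adhesion molecule of hepatocytes that is also known for its part in insulin clearance, had an intensity of 196 and 208 at 2 days, 239 and 262 at 2 hours, and 252 and 300 in untreated cells. The 2 day arrays lay below both other groups, which overlapped each other. The log2 change at 2 days was -0.44 (SE 0.11, adjusted p = 0.00507 by limma) and at 2 hours -0.14 (adjusted p = 0.717). The call at 2 days was lost without replicate 1 of the 2 day group (-0.40, adjusted p = 0.0604), without replicate 2 of the untreated group (-0.32, adjusted p = 0.119), after normexp (adjusted p = 0.066) and with the mean of its 4 passing probes (-0.16, adjusted p = 0.297). The 3 other probes were not called against untreated cells. One of them was lower at 2 days than at 2 hours (-0.32, adjusted p = 0.037), a call lost without any 1 of those 4 arrays (adjusted p = 0.0843 to 0.218) and after normexp (adjusted p = 0.0964). For the brightest probe the same comparison gave -0.31 (adjusted p = 0.0536).

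Cd47, the ligand of SIRPα that restrains phagocytosis and also binds thrombospondin, had an intensity of 1094 and 1343 at 2 days, 1181 and 1321 at 2 hours, and 1131 and 941 in untreated cells on its brighter probe. The 2 day and untreated arrays overlapped, and neither log2 change was called, 0.23 at 2 days (adjusted p = 0.236) and 0.28 at 2 hours (adjusted p = 0.306). The second probe read 859 and 854 at 2 days, 851 and 851 at 2 hours, and 679 and 672 in untreated cells. On this probe both TNFα groups stood apart from untreated cells and replicates were nearly equal. Its log2 change was 0.34 at 2 days (adjusted p = 0.0214 over all probes by limma) and 0.33 at 2 hours (adjusted p = 0.0854). The call at 2 days was lost without any 1 of the 4 arrays (adjusted p = 0.0926 to 0.107) and after normexp (adjusted p = 0.218).

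Cd44, the hyaluronan receptor, followed another course. Its brightest probe had an intensity of 1688 and 1406 at 2 days, 555 and 570 at 2 hours, and 472 and 491 in untreated cells. The 2 day arrays lay far above both other groups, and the 2 hour arrays only just above the untreated ones. The rise at 2 days was 3.20-fold (log2 1.68, SE 0.11, adjusted p = 1.15e-11 by limma), rank 14 among the rises of all genes. At 2 hours the log2 change was 0.22 (adjusted p = 0.393). At 2 days against 2 hours the rise was 2.74-fold (log2 1.45, SE 0.11, adjusted p = 1.86e-10 by limma), rank 10.

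Cd44 had 9 probes, of which 6 passed. The second brightest read 385 and 431 at 2 days, 207 and 248 at 2 hours, and 215 and 217 in untreated cells, and rose at 2 days by 0.91 (adjusted p = 1.43e-06 over all probes by limma). The third read 215 and 210 at 2 days, 168 and 189 at 2 hours, and 148 and 154 in untreated cells, and rose at 2 days by 0.49 (adjusted p = 0.00139). Both had 2 day arrays above all others, as the brightest probe did. The 3 other passing probes were not called at 2 days (0.04 to 0.27). With the mean of the passing probes the rise was 1.51-fold, and after normexp 3.72-fold on the brightest probe, with the call kept in both cases.

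Some markers of other cell types were also called at 2 days. The 10 macrophage markers on the array summed to 1800 to 1991 at 2 days, 1593 to 1625 at 2 hours and 1575 to 1657 in untreated cells. Of the 8 tested, 3 were higher at 2 days against untreated cells (C1qa 0.36, C1qb 0.75 and C1qc 0.42), where 6.74% of all genes were called higher. Against 2 hours 4 were higher, these and Vsig4 (0.31), where 8.63% of all genes were called higher. Clec4f and Cd5l lay below the median on all arrays, whereas Vsig4 and Marco lay above it on all arrays. The 8 stellate cell and fibroblast markers summed to 3575 to 4252 at 2 days, 2892 to 3107 at 2 hours and 2864 to 3309 in untreated cells, and of the 5 tested Acta2 was higher (0.67) and Reln lower (-0.82) at 2 days, while Reln was higher at 2 hours (0.43). Of the 3 tested bile duct markers 1 was called, Sox9, which rose at 2 days (1.78) and at 2 hours (0.79). Krt7 (0.09) and Krt19 (0.19) were not called at 2 days, and Epcam and Cftr lay below the median on all arrays. The list of 5 summed to 3435 to 3696 at 2 days, 2051 to 2084 at 2 hours and 1446 to 1447 in untreated cells, most of it at 2 days the Sox9 signal, with a mean of 2912 at 2 days, 1467 at 2 hours and 847 in untreated cells. The part of these cells in the rise of Cd44 was not tested.

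Of the 7 tested hepatocyte markers, 4 were called lower at 2 days and 3 were not, where 5.92% of all genes were called lower. The 8 on the array summed to 68808 to 73490 at 2 days, 115334 to 116273 at 2 hours and 111195 to 117939 in untreated cells. Apoa1 (-0.82), Asgr1 (-1.60), Cps1 (-3.10) and Cyp3a11 (-2.97) were the 4, whereas Ttr (-0.28), Serpina1c (-0.17) and Alb (-0.13) were not called. At 2 hours 0 of the 7 were called. At 2 days against 2 hours 5 were called lower, the same 4 and Ttr (-0.33), where 6.67% of all genes were called lower. Apoa1, Serpina1c and the transthyretin gene Ttr gave bright signals on all arrays. The Alb probe read only 145 to 160 as group means, near the array median, and Tat lay below the median on all arrays. The lymphocyte and neutrophil list summed to 615 to 632 at 2 days, 619 to 659 at 2 hours and 648 to 667 in untreated cells, with 1 marker tested and 0 called.

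Itgav, the αv subunit that pairs with several β subunits, had an intensity of 444 and 393 at 2 days, 349 and 328 at 2 hours, and 313 and 269 in untreated cells. The groups stood in the order of exposure without overlap. The rise at 2 days was 1.44-fold (log2 0.53, SE 0.11, adjusted p = 0.000916 by limma), and the log2 change at 2 hours was 0.22 (adjusted p = 0.419). The call at 2 days was lost after normexp (0.72, adjusted p = 0.0564) and with the mean of its 3 passing probes (0.22, adjusted p = 0.134). Between the times the log2 change was 0.30 (adjusted p = 0.0543). The other passing probes gave 0.16 and -0.03 at 2 days and were not called, and 2 more were too dim to test. The annotation pairs the brightest Itgav probe with a RefSeq transcript and all its others with cDNA clone sequences.

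Itgb1, the β1 subunit shared by the collagen, laminin and fibronectin receptors, had an intensity of 277 and 248 at 2 days, 265 and 278 at 2 hours, and 234 and 263 in untreated cells. The 2 day arrays overlapped both other groups. Its log2 change was 0.08 at 2 days (95% interval -0.14 to 0.29) and 0.13 at 2 hours (95% interval -0.08 to 0.35). The second probe read 190 and 259 at 2 days, 278 and 223 at 2 hours, and 251 and 194 in untreated cells, and was not called.

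**Figure D3:**
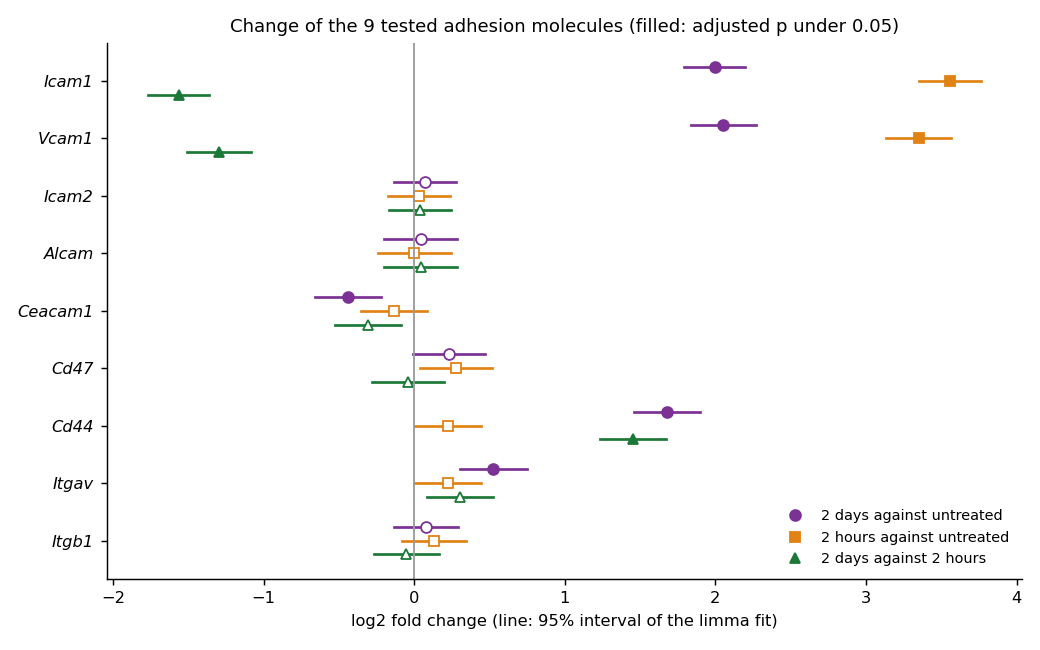
Log2 fold change of the 9 tested adhesion molecules with its 95% interval, for 2 days against untreated, 2 hours against untreated and 2 days against 2 hours, filled where the adjusted p was under 0.05. Icam1 (3.56 at 2 hours, 1.99 at 2 days) and Vcam1 (3.35 and 2.05) share a pattern in which 2 hours is the larger, and Cd44 (0.22 and 1.68) shows the opposite order.

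The members thus differed in the order of their times. Icam1 and Vcam1 had their highest level at 2 hours, and Cd44 at 2 days, each with a called difference between the times. For Itgav and Ceacam1 the means moved further from untreated cells at 2 days than at 2 hours, without a call on that difference in the fit of all 6 arrays. Over all 23 passing probes, 8 were higher and 1 lower at 2 days, where 9.63% of all probes were called, 4.96% higher and 4.67% lower. At 2 hours 3 probes were higher and 0 lower, where 1.89% of all probes were called, 1.24% higher and 0.651% lower. At 2 days against 2 hours 2 probes were higher and 4 lower, where 11.6% of all probes were called, 6.09% higher and 5.49% lower. Probes of a gene share their target, so these counts are not independent.

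**Figure D4:**
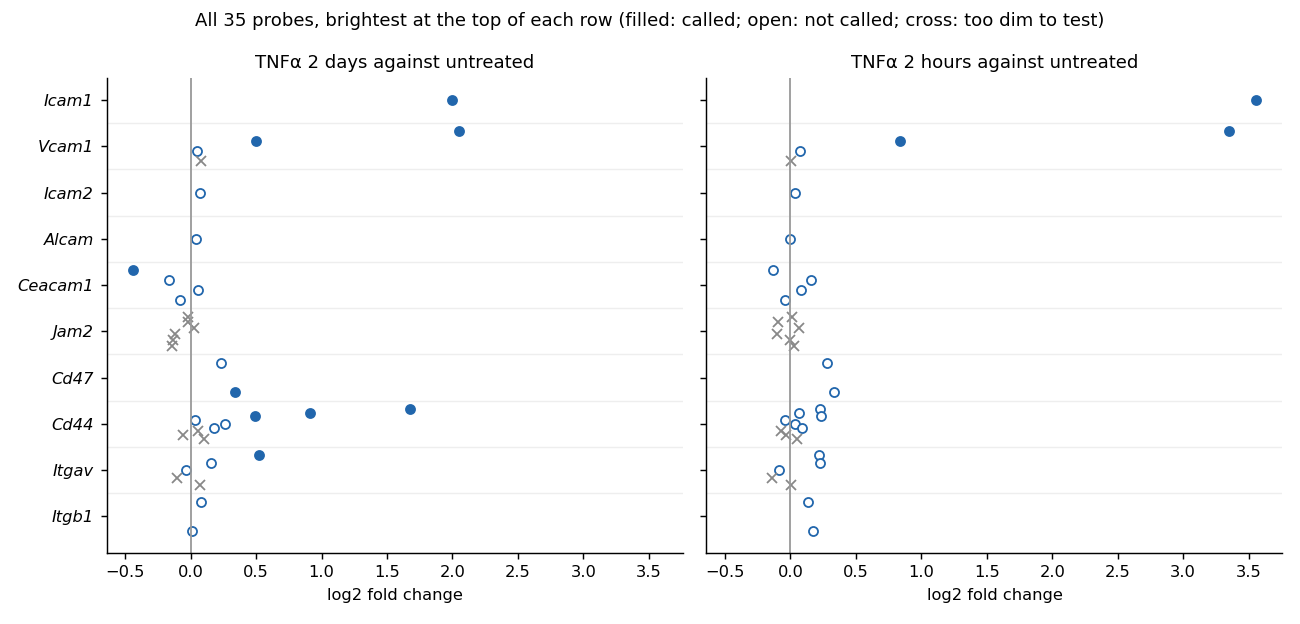
Log2 fold change of all 35 probes of the 10 adhesion molecules at 2 days and at 2 hours against untreated cells, with the brightest probe of a gene at the top of its row, filled where called over all probes and crossed where too dim to test. Dimmer probes of Vcam1 and Cd44 lie closer to 0 than the brightest one.

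Genes whose pattern over the 6 arrays was most like that of a called member were found by the Euclidean distance of log2 values from the untreated mean. Genes with clone or locus names were left out. Nearest to Icam1 among genes outside the list were Cxcl1 (distance 0.63), a neutrophil-attracting chemokine, Tlr2 (1.05), a receptor for bacterial lipopeptides, and Stx11 (1.65), a syntaxin. The same genes were nearest to Vcam1, with Tlr2 at 0.79, Cxcl1 at 0.92 and Stx11 at 1.55. Icam1 and Vcam1 were nearer to each other, at 0.38, than to any of these.

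Cxcl1 had an intensity of 2054 and 2255 at 2 days, 8544 and 8613 at 2 hours, and 574 and 514 in untreated cells. Nearest to Cd44 were Igfbp7 (0.18), a secreted binding protein of insulin-like growth factors, Crybb3 (0.26) and Wfdc2 (0.29). Igfbp7 read 3178 and 2405 at 2 days, 938 and 931 at 2 hours, and 864 and 845 in untreated cells. As for Cd44, its 2 day arrays lay far above the rest, and replicate 1 was the higher of them, which follows from its choice by distance. Itgav was nearest to Neurl3 (0.13), Pik3ap1 (0.14) and Ift43 (0.15), and Ceacam1 to Zbtb16 (0.13), Chchd10 (0.16) and Zfp131 (0.16), for which small changes make small distances.

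Other genes of leukocyte and matrix adhesion were read from the same fit, in 7 lists chosen with earlier results of these data known. They held 96 genes, of which 77 could be tested. At 2 days 12 rose and 6 fell, which is 23.4% of them, where 12.7% of all genes were called. At 2 hours 3 rose and 0 fell, which is 3.9%, near the 2.82% of all genes. An unadjusted p under 0.05 was reached by 24 at 2 days and 10 at 2 hours, or 31.2% and 13%, where 22.8% and 11.8% of all genes reached it. The median log2 change was 0.031 at 2 days and 0.016 at 2 hours, beside 0.006 and -0.012 over all genes. After normexp 6 of the 18 calls at 2 days and 0 of the 3 at 2 hours were kept. The share of calls kept over all genes is not given here.

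Among 16 tested immunoglobulin superfamily relatives of the members, 4 were higher at 2 days, among them Cadm1 (0.42), Nectin2 (0.37) and Cd99 (0.34), and 1 was lower (Nectin3, -0.44), and Pvr, the poliovirus receptor homologue, was higher at 2 hours (0.53). All 6 calls were lost after normexp. Those of Cd99, Nectin2 and Cadm1 were also lost without replicate 1 of the 2 day group or replicate 2 of the untreated group. The calls of Cd99 and Nectin2 were lost without replicate 2 of the 2 day group as well, and that of Cd99 without replicate 1 of the untreated group. That of Pvr was also lost without replicate 2 of the 2 hour group, without replicate 1 of the untreated group and with the mean of its passing probes. Of 8 tested selectins, selectin ligands and their enzymes 1 was called at 2 days, the sialyltransferase gene St3gal4 (-0.32). Its call was lost without any 1 of the 4 arrays and after normexp. Of 5 tested leukocyte integrins, the receptors on the other side of these contacts, 0 were called against untreated cells by limma, 0 at 2 days and 1 at 2 hours having an unadjusted p under 0.05.

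Of 14 other integrin subunits, Itga3, a laminin receptor subunit, and Itga5, the fibronectin receptor subunit, rose at 2 days. Itga3 had an intensity of 807 and 876 at 2 days, 541 and 625 at 2 hours, and 584 and 490 in untreated cells (log2 change at 2 days 0.65, adjusted p = 0.00011 by limma). Its 2 day arrays lay above all others. Itga5 rose by 0.53 and was not called without replicate 1 of the untreated group or after normexp.

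Extracellular ligands of the members moved in both directions at 2 days, with 2 of 11 higher and 4 lower. Among those lower were the fibrinogen chain genes Fga (-0.90) and Fgg (-0.86) and Vtn for vitronectin (-0.59), which hepatocytes secrete and integrins bind. Fga had an intensity of 7384 and 8187 at 2 days, 10779 and 12745 at 2 hours, and 17131 and 12313 in untreated cells. The 2 day arrays were the lowest, and the other groups overlapped. Tgfb1, which αv integrins activate from its latent form, rose by 0.51. The calls of Fga, Fgg and Tgfb1 were kept under every alternative, while that of Vtn was lost after normexp.

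Among 13 cytoplasmic partners, Msn, which encodes moesin and links CD44 and ICAMs to actin, had an intensity of 844 and 859 at 2 days, 354 and 364 at 2 hours, and 347 and 336 in untreated cells. As for Cd44, the 2 day arrays lay far above both other groups, and the log2 change was 1.32 at 2 days (adjusted p = 2.36e-10 by limma). Ilk, the integrin-linked kinase, rose by 0.33, a call lost without any 1 of the 4 arrays, after normexp and with the mean of its passing probes.

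Of 10 sheddases and inhibitors, which cut adhesion molecules from the surface or prevent it, Timp1 had an intensity of 349 and 344 at 2 days, 241 and 226 at 2 hours, and 194 and 185 in untreated cells, a log2 change of 0.87 at 2 days (adjusted p = 3.76e-07 by limma). The metalloprotease gene Mmp9 rose by 0.38 at 2 days, a call lost after normexp and without replicate 2 of either group. At 2 hours Rhbdf1 (0.73) and Rhbdf2 (0.56) rose, whose products carry the TNFα sheddase ADAM17 to the surface. Rhbdf1 had an intensity of 1488 and 1295 at 2 days, 1896 and 1889 at 2 hours, and 1107 and 1182 in untreated cells. Both calls were lost after normexp, and that of Rhbdf2 also without replicate 1 of the 2 hour group.

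Between the times 8 related genes were higher at 2 days than at 2 hours and 10 lower, or 23.4% of those tested, where 15.3% of all genes were called. An unadjusted p under 0.05 was reached by 26, or 33.8%, where 25.7% of all genes reached it. Those kept under every alternative were Msn (1.24), Timp1 (0.57) and Cadm1 (0.53), which were higher, and Fgg (-0.76) and Rhbdf2 (-0.63), which were lower.

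**Figure D5:**
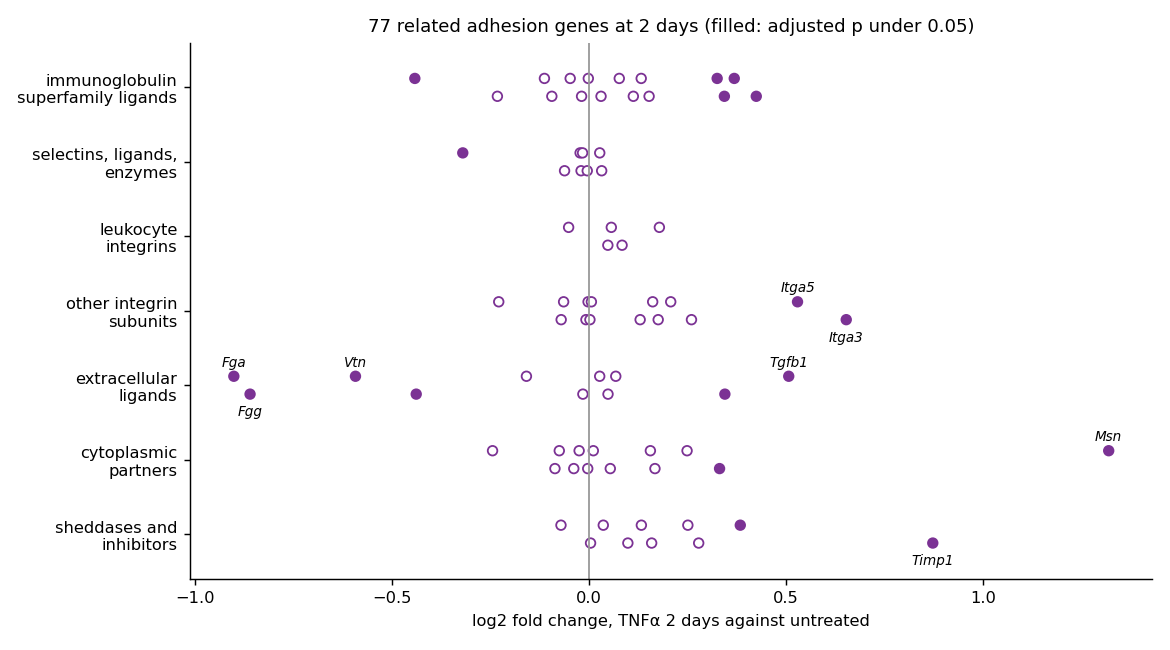
Log2 fold change at 2 days against untreated cells of the 77 tested genes related to the adhesion molecules, 1 row per list and 1 point per gene, filled where the adjusted p was under 0.05 and named for the largest changes. Msn (1.32) and Timp1 (0.87) lie furthest to the right and Fga (-0.90) and Fgg (-0.86) furthest to the left.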

How the data were processed

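Of each array, 1 deposited intensity per probe was used, from a table of 45281 probes on a linear scale. How the authors scanned, summarised and normalized the arrays is not given in the sources. The 6 columns shared 1 distribution (sorted values within 0.333%), as after quantile normalization. Whether background had been subtracted is not stated, and the lowest value was 96.5. Detection p-values were not used.

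Probes were named through the platform annotation: 34885 had 1 symbol, 18 had more, and 10378 are unnamed here. For 34807 of them the current symbol was taken by entrez identifier from a RefSeq table of assembly GRCm38.p6. Intensities were converted to log2. A probe passed above the 50th percentile of its array on at least 2 arrays (26272 probes, 21425 with 1 symbol), and the brightest passing probe stood for a gene (13438 genes). limma 3.58.1 (R 4.3.3) fitted 1 mean per group over the 6 arrays (residual degrees of freedom 3, prior 21.22, so that the spread behind a p-value was mostly that shared over genes). The procedure was tested on simulated data. The small number of arrays limits the precision.

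The members, lists and tests were chosen with earlier results of these data known. Named were all members, up to 4 called genes of a list with the largest change in a comparison, and the 3 genes nearest in pattern to each called member. Clone and locus names were left out of the search for the nearest genes. Where fewer are named between the times, they are those kept under every alternative, a choice made after their values were seen. Groups and replicate numbers came from the titles. Same-numbered arrays did not deviate together (r = 0.0364, -0.0753 and -0.148 over genes), so the numbers were not used as pairs. Alternatives were median centring, repeated quantile normalization, cyclic loess, an offset of 16, normexp, other filters and probe rules, trended variances, fits of only the groups compared, a replicate block, a threshold of 0.01 and leaving out each array. Those for single probes were added after seeing the data. Promoters came from a RefSeq table and are a description with no test.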

Additional observations from a re-analysis of the deposited data

Results flagged for a closer look

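For 3 of the 9 tested members the level differed between the times, by the test of 2 days against 2 hours. In that test 15.3% of all genes were called. Exposure to TNFα and time in culture cannot be told apart at 2 days. The log2 change of Icam1 at 2 days minus that at 2 hours was -1.56 (adjusted p = 1.27e-11 by limma), and that of Vcam1 was -1.30 (adjusted p = 9.44e-10). For Cd44 it was 1.45 (adjusted p = 1.86e-10). For each, both 2 day arrays lay on the same side of both 2 hour arrays, which held for 52.8% of all genes.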

How the results depend on the processing

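Of 10 called member changes, 8 kept their call under every alternative; the exceptions were Ceacam1 and Itgav at 2 days. Of the 17 not called, 2 were called under an alternative and 9 changed sign in an uncalled value. Members called at 2 days were 5, against 3 with normexp and 3 with the mean of probes, and 4 to 5 when an array was left out; at 2 hours they were 2 whichever array was left out. Between the times 3 were called, against 5 with the filter at the 70th percentile and 5 with only the groups compared (3 to 5 with an array left out, 5 without either untreated array). With the replicate number as a block 5 members were called between the times, Ceacam1 (adjusted p = 0.0478) and Itgav (adjusted p = 0.0477) being added, and the counts against untreated cells stayed at 5 and 2. The numbers do not pair the arrays. Related genes called at 2 days were 18, against 6 with normexp, 11 at a threshold of 0.01 and 11 to 18 with an array left out (11 without replicate 2 of the 2 day group). At 2 hours they were 3, against 0 with normexp and 2 to 4 with an array left out, and between the times 18, against 7 with normexp and 12 to 18 with an array left out. These counts stand without the share of all genes called under the same alternative. A lower count therefore cannot be read as particular to these genes. After normexp the adjusted p of Icam1 at 2 days was also higher, 0.000446 against 1.25e-13 by limma, while its rise was larger. Signals near the background limit what can be said of Icam2, Jam2 and the dimmer probes.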
